A study of Danio rerio with 6 samples.

Results

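Transcripts of molecular chaperones and protein folding factors were followed in whole zebrafish embryos that had been exposed to 11,12-EET, an epoxide made from arachidonic acid by cytochrome P450 enzymes. The genes were chosen by symbol: a probe set of the array belonged to the set when the platform annotation gave it exactly 1 gene symbol and that symbol began with hsp, dnaja, dnajb, dnajc, cct and a digit, tcp1, pdia, calr, canx, serpinh1, fkbp, bag or hsf. The rule found 100 probe sets of 87 genes among 15502 tested probe sets. A further 3 probe sets that carry several symbols, of which at least 1 would match, were left out.

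All embryos were wild type of the AB strain, a standard laboratory strain, and were collected at 36 h post fertilisation after removal of the chorion. The treated group had received 5 µM 11,12-EET from 24 to 36 h, and the control group had received the solvent DMSO over the same 12 h. Each group had 3 arrays, called biological replicates in the labels, and 25 embryos were used per treatment group. Whether the pools came from separate clutches is not said, so the p-values measure the spread between these pools. Because RNA came from whole embryos, fewer cells of a type and less RNA per cell cannot be told apart.

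Chaperones bind unfolded proteins and keep them from aggregating while they fold. Hsp70 proteins take up unfolded chains with the help of J-domain proteins of the DnaJ family, which set off ATP hydrolysis, and of Bag proteins and Hsp110 proteins, which let the nucleotide go. Hsp90 acts later on signalling proteins and, in zebrafish muscle, on myosin, and the ring-shaped CCT complex folds actin and tubulin. In the endoplasmic reticulum calnexin, calreticulin and the protein disulfide isomerases fold secreted proteins. Heat shock factors switch on many of these genes when unfolded protein builds up.

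The 6 arrays had nearly the same median, 4.81 to 4.82 (log2), and pairs of them correlated at 0.943 to 0.957. Of 64 listed tissue markers 44 were measured, and 43 of these, from muscle, heart, blood, neural tissue, epidermis, notochord, lens and yolk, were at or above the median level of 4.81 that separates the brighter 7751 probe sets from the rest. The summed marker level overlapped between the groups in 6 of 8 tissue lists. It did not overlap for epidermis, at 13.65 to 13.74 in DMSO and 13.51 to 13.59 in EET on the log2 scale. All 6 measured epidermis markers were lower in EET. The fin fold genes and2 and and1 differed by -1.38 and -0.72, and the others by -0.20 (krt5) to -0.0044 (krt8). The sum also did not overlap for notochord and cartilage (10.76 to 11.00 in DMSO, 10.58 to 10.73 in EET). Of the 3 markers measured there, col2a1a, by far the brightest at a mean level of 10.63, differed by -0.19, tbxta by -0.15 and shha by 0.0002. As a sign of RNA quality, the actin control probe set near the 3' end exceeded that near the 5' end by 1.74 to 2.01 in the DMSO arrays and by 2.14 to 2.30 in the EET arrays, without overlap, and for GAPDH the ranges overlapped. The part of these values in the differences below was not tested. A principal component analysis over the brighter 7751 set both replicate 3 arrays apart from the other 4 on its leading axis (44.0% of the variance).

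Chaperone transcripts were compared between EET and DMSO at the end of the exposure. No member passed the test: limma called 0 of the 100 probe sets at an adjusted p under 0.05 over all probe sets, where 0% of all probe sets were called, and the smallest adjusted p of a member was 0.465, for dnajc24. In the fit to the brighter probe sets, in which 0.0774% were called, 0 of the 69 members it held were called, and the smallest adjusted p was 0.657, for bag6. At an unadjusted p under 0.05 the fit over all probe sets had 4 of the 100 members (2 higher and 2 lower in EET), against 5.27% of all probe sets. The fit to the brighter ones had 2 of 69 (1 higher and 1 lower), against 6.66% there. Neither share was above the background.

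Members lay on both sides of no difference. By group mean 47 were higher and 53 lower in EET, where 49.5% of all tested probe sets were higher, and the median log2 difference was -0.02 for the members and -0.0023 for all probe sets. Among the brighter members 34 were higher and 35 lower, where 49.9% of all brighter probe sets were higher. Among the 69 brighter members the differences lay between -0.36 (calr3b, 1.29-fold lower in EET) and 0.36 (bag6, 1.28-fold higher). The 95% interval of the difference, from limma, lay within a 2-fold change either way in 68 of the 69, against 97.8% of all brighter probe sets, and the exception was hspa4a. Among the 31 dimmer members the interval lay within 2-fold in 10. The median SD between replicates was 0.143 for brighter and 0.495 for dimmer members, and no detection calls were used here, so dim members are not known to be above background.

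**Figure D1:**
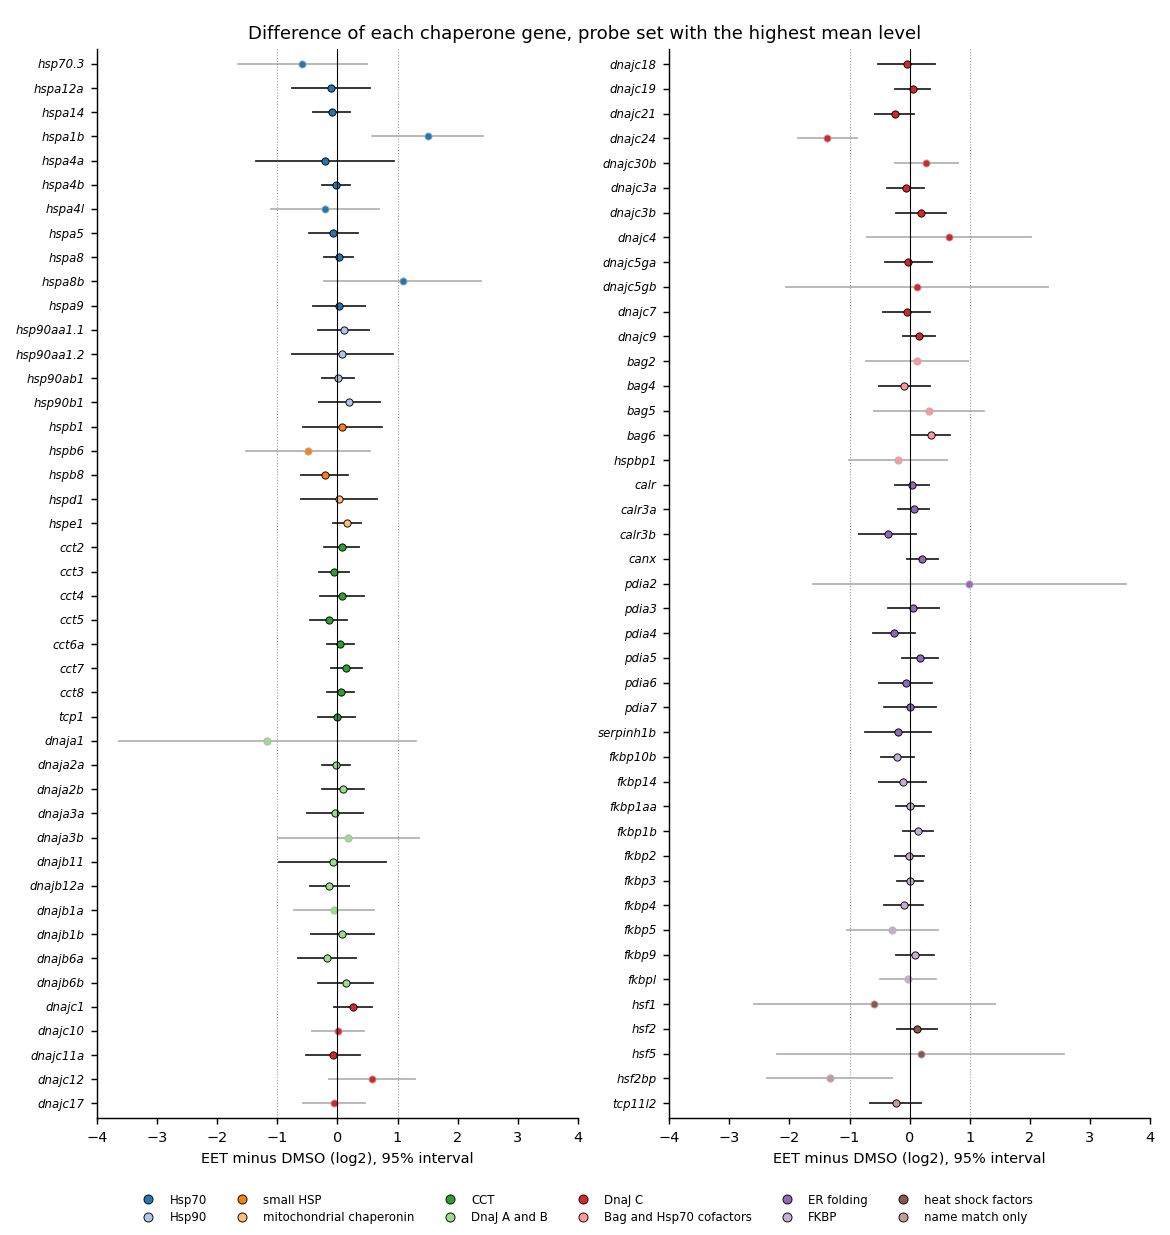
Log2 difference of EET minus DMSO (x axis) for each of the 87 genes at its probe set with the highest mean level, with the 95% interval from limma, coloured by role. Dark lines are brighter and grey lines dimmer probe sets, dotted lines mark a 2-fold change, and of the brighter genes only bag6 has an interval that does not cross 0 and only hspa4a one that passes a dotted line.

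**Figure D2:**
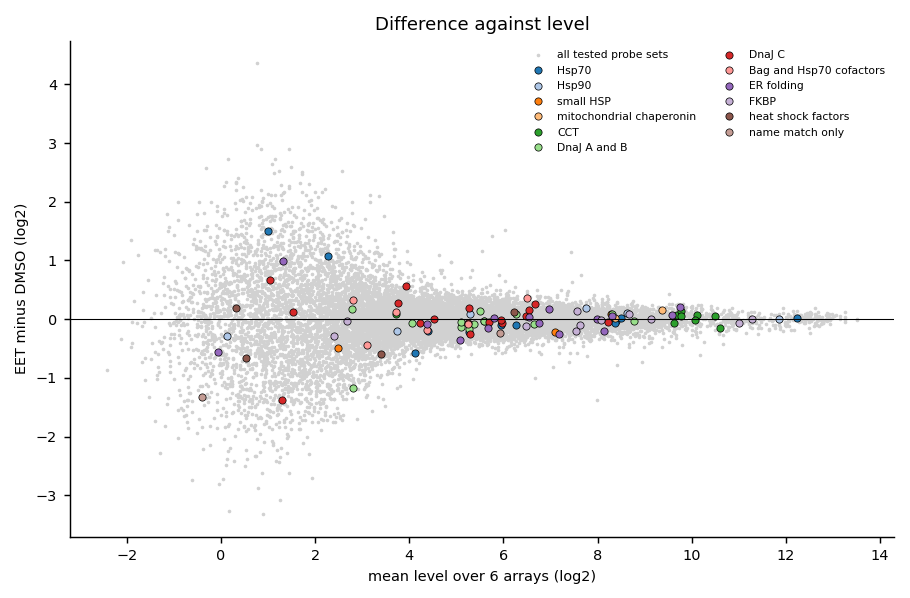
Mean level over the 6 arrays (x axis, log2) against the log2 difference of EET minus DMSO (y axis) for all 15502 tested probe sets in grey and the 100 members in colour. The brighter members lie in a narrow band around 0, and the members beyond 1 either way are all dim.

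The Hsp70 and Hsp110 chaperones were measured by bright and by dim probe sets. Of 12 probe sets of 11 genes 4 were higher in EET and 8 lower. Their median difference was -0.05, and the 8 brighter ones lay between -0.21 and 0.03. The constitutive hspa8, which folds newly made proteins and strips clathrin from vesicles, read 12.22, 12.20 and 12.28 in DMSO replicates 1, 2 and 3 and 12.28, 12.15 and 12.32 in EET, and this order of replicates holds for all values that follow. Its groups overlapped, and the log2 difference was 0.02 with a 95% interval from -0.23 to 0.26. For hspa5, the Hsp70 of the endoplasmic reticulum known as BiP, the levels were 8.36, 8.67 and 8.19 in DMSO and 8.22, 8.46 and 8.35 in EET. This widely used marker of unfolded protein in that compartment thus overlapped between the groups, at a difference of -0.07 (interval from -0.47 to 0.33). For hspa9, the Hsp70 of mitochondria, the brighter of its probe sets differed by 0.03 (interval from -0.40 to 0.46), and for hspa4b, an Hsp110 nucleotide exchange factor, the difference was -0.03 (interval from -0.27 to 0.21).

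The inducible Hsp70 genes hsp70.3 and hspa1b were dim, and so was hspa8b. The probe set of hsp70.3 read 4.30, 4.79 and 4.13 in DMSO and 4.05, 2.97 and 4.45 in EET, so EET replicate 2 was the low array and the groups overlapped (difference -0.58, SE 0.43, or -0.16 without that array). The hspa1b probe set read 0.25, 0.07 and 0.43 in DMSO and 2.33, 1.94 and 0.98 in EET. It was higher in every EET array, least so in replicate 3, where the pair differed by 0.55 against 1.97 in the mean of replicates 1 and 2. Its level was close to the lower end of the scale, and its log2 difference of 1.50 (SE 0.37) had an unadjusted p of 0.00783 and an adjusted p of 0.837 in limma. In hspa8b the levels were 0.59, 2.22 and 2.37 in DMSO and 2.83, 2.50 and 3.11 in EET, a difference of 1.08 (SE 0.52, adjusted p = 0.930) that was 0.52 without the low DMSO replicate 1. With 32 added on the linear scale before the log, which compresses low levels, the differences were 0.10 for hspa1b and 0.13 for hspa8b. The hsp70.3 probe set has the suffix by which the maker marks probe sets that share probes with other sequences, so it may take signal from related Hsp70 genes.

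Hsp90 genes had 6 probe sets of 4 genes, with a median of 0.04. The cytosolic hsp90ab1, expressed in most tissues, read 11.85, 11.75 and 11.92 in DMSO and 11.87, 11.76 and 11.93 in EET at its brighter probe set. Same-numbered arrays were almost equal, and the difference was 0.01 (interval from -0.25 to 0.27). The muscle form hsp90aa1.1, which zebrafish need to assemble myosin filaments, read 8.50, 8.72 and 8.51 in DMSO and 8.42, 8.66 and 8.95 in EET, overlapping at a difference of 0.10 (interval from -0.32 to 0.52). Its tandem neighbour hsp90aa1.2 was more variable, at 5.01, 5.48 and 5.27 in DMSO and 4.91, 5.06 and 6.04 in EET, with EET replicate 3 above the other 5 arrays. The endoplasmic reticulum form hsp90b1 differed by 0.19 (interval from -0.32 to 0.70). For skeletal muscle the summed marker level also overlapped between the groups, at 15.80 to 15.89 in DMSO and 15.77 to 15.81 in EET.

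Small heat shock proteins, which hold unfolded chains without ATP, had 3 probe sets. The actin-protecting hspb1 read 8.05, 8.18 and 8.47 in DMSO and 8.04, 8.07 and 8.83 in EET, a difference of 0.08 (interval from -0.57 to 0.73). The autophagy partner hspb8 read 7.22, 7.41 and 6.95 in DMSO and 7.04, 7.06 and 6.84 in EET, a difference of -0.21 (interval from -0.60 to 0.18). Both overlapped between groups, and the third gene, hspb6, was dim and differed by -0.49 (SE 0.41).

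The mitochondrial chaperonin is made of hspd1, the barrel, and hspe1, its lid, which are direct neighbours in the RefSeq gene table. For hspe1 the arrays read 9.25, 9.25 and 9.34 in DMSO and 9.38, 9.45 and 9.49 in EET. All EET arrays were above all DMSO arrays, but the difference was only 0.16 (interval from -0.07 to 0.39, adjusted p = 0.932 over all and 0.808 among the brighter probe sets). The partner hspd1 read 8.16, 8.27 and 8.63 in DMSO and 8.001, 8.31 and 8.82 in EET, overlapping at 0.02 (interval from -0.61 to 0.66), and its highest arrays were the replicate 3 arrays of both groups.

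Subunits of the CCT chaperonin varied little. All of its 8 measured subunits, cct2, cct3, cct4, cct5, cct6a, cct7, cct8 and tcp1, had a brighter probe set, and their differences lay between -0.15 (cct5) and 0.15 (cct7). Their 95% intervals lay between -0.45 and 0.44, and the median SD between replicates was 0.103, against 0.145 for all brighter probe sets and 0.102 for brighter FKBP probe sets. These SDs were not matched for level. The brighter CCT probe sets had mean levels from 9.62 (cct3) to 10.60 (cct5), where the median of all brighter probe sets was 6.47. The cct8 probe set read 9.75 in every DMSO array and 9.74, 9.83 and 9.86 in EET. For cct6a the arrays read 10.50, 10.49 and 10.44 in DMSO and 10.50, 10.56 and 10.52 in EET. Neither separated the groups. A dim second probe set of cct2 differed by 0.09 (SE 0.28).

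J-domain proteins were the largest group, with 13 probe sets of types A and B and 17 of type C. Of types A and B 4 were higher in EET and 9 lower, none separated the groups, and the brighter ones lay between -0.17 and 0.13. The dnajb1b probe set, for a partner of cytosolic Hsp70, read 6.28, 6.41 and 5.99 in DMSO and 6.16, 6.09 and 6.67 in EET, so its highest and lowest arrays were the replicate 3 arrays of opposite groups. The endoplasmic reticulum partner of BiP, dnajb11, read 5.06, 5.47 and 5.72 in DMSO and 4.92, 5.05 and 6.04 in EET. Both overlapped, with differences of 0.08 (interval from -0.44 to 0.60) and -0.08 (interval from -0.97 to 0.81). The abundant dnaja2a, a cytosolic Hsp70 partner, differed by -0.02 (interval from -0.26 to 0.21). The dnaja1 probe set, dim at 3.39 ± 0.54 (SD, n = 3) in DMSO, had a low value of 0.17 in EET replicate 2 and differed by -1.17 (SE 0.99), or by -0.14 without that array.

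Type C had 9 probe sets higher in EET and 8 lower, and its brighter ones lay between -0.25 and 0.26. The member with the smallest p, dnajc24, whose protein takes part in making diphthamide on elongation factor 2, read 2.06, 1.79 and 2.07 in DMSO and 0.27, 0.62 and 0.91 in EET. It was lower in every EET array, by a log2 difference of -1.37 (SE 0.20, unadjusted p = 0.000649, adjusted p = 0.465). Its level was near the dim end of the scale, and with 32 added on the linear scale the difference was -0.10. The ribosome biogenesis factor dnajc21 read 5.53, 5.39 and 5.32 in DMSO and 4.98, 5.23 and 5.28 in EET, which did not overlap but came within 0.04 of each other in replicate 3 (difference -0.25, adjusted p = 0.743 in the fit to brighter probe sets). The endoplasmic reticulum membrane protein dnajc1 differed by 0.26 (SE 0.13). The dim dnajc12, a cofactor of the aromatic amino acid hydroxylases, differed by 0.57 (SE 0.28). Both overlapped between the groups, and neither passed.

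The Bag genes and the Hsp70 cofactor hspbp1 had 6 probe sets, 3 higher and 3 lower. The bag6 probe set, for a scaffold that guards tail-anchored membrane proteins, read 6.19, 6.49 and 6.28 in DMSO and 6.79, 6.66 and 6.58 in EET. Every EET array was above every DMSO array, with a log2 difference of 0.36 (SE 0.13, unadjusted p = 0.0336 in limma over all probe sets). Among the brighter members bag6 had the smallest p (unadjusted p = 0.0132 in the fit to the brighter probe sets). It did not pass there (adjusted p = 0.657) or over all probe sets (adjusted p = 0.930). The bag4 probe set overlapped at -0.09 (SE 0.17), and those of bag2, bag5 and hspbp1 were dim, with differences from -0.43 to 0.33.

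Folding factors of the endoplasmic reticulum had 15 probe sets of 11 genes, 8 higher in EET and 7 lower, and the brighter ones lay between -0.36 and 0.21. The canx probe set, for the lectin chaperone calnexin, read 9.62, 9.77 and 9.56 in DMSO and 9.85, 9.90 and 9.83 in EET. It was higher in every EET array by 0.21 (interval from -0.04 to 0.47, adjusted p = 0.743 in the fit to brighter probe sets). The soluble counterpart calreticulin has 3 genes here: calr differed by 0.04 and calr3a by 0.07 at their brightest probe sets, while calr3b read 5.49, 5.23 and 5.07 in DMSO and 5.12, 4.61 and 4.98 in EET, overlapping at -0.36 (SE 0.19). The thiol isomerase genes pdia3, pdia4 and pdia6 differed by 0.06, -0.26 and -0.06, each with overlapping groups. The collagen chaperone serpinh1b read 7.87, 8.23 and 8.61 in DMSO and 8.22, 7.87 and 8.04 in EET, overlapping at -0.19 (interval from -0.74 to 0.36). The dim pdia2, a pancreatic isomerase in mammals, was uneven within both groups, reading 0.12, 2.31 and 0.05 in DMSO and 2.66, -0.07 and 2.88 in EET. Each group held arrays near 0 and arrays above 2, and the SE of its difference was 1.04.

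Peptidyl-prolyl isomerases of the FKBP family had 11 probe sets of 10 genes, 4 higher in EET and 7 lower, and the brighter ones lay between -0.21 and 0.13. The FK506-binding protein gene fkbp1aa read 11.27, 11.37 and 11.22 in DMSO and 11.26, 11.32 and 11.30 in EET at its brightest probe set. The nuclear fkbp3 had the narrowest range of all brighter members, 0.07 over the 6 arrays, and a difference of 0.00 (interval from -0.22 to 0.22). The collagen-folding fkbp10b read 7.61, 7.67 and 7.65 in DMSO and 7.29, 7.57 and 7.46 in EET. It was lower in every EET array (log2 difference -0.21, interval from -0.48 to 0.07, adjusted p = 0.767 in the fit to brighter probe sets). The glucocorticoid-responsive fkbp5 was dim and differed by -0.29 (SE 0.30).

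Heat shock factors had 4 probe sets of 3 genes. Only hsf2 was bright, at 5.96, 6.31 and 6.21 in DMSO and 6.39, 6.23 and 6.23 in EET (difference 0.12, interval from -0.21 to 0.45). The master regulator hsf1 was measured by a pair of dim probe sets whose intervals ran from -2.60 to 1.42 and from -2.81 to 1.49, so neither a direction nor a size could be given for it. The gene hsf5 was dim as well. The symbol rule also took in a pair of genes that match by letters alone, hsf2bp, which acts in meiotic recombination in mammals, and tcp11l2. The hsf2bp probe set was lower in every EET array (difference -1.33, SE 0.42, adjusted p = 0.930), at levels around 0. The tcp11l2 probe set overlapped at -0.23 (SE 0.17).

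Counted over all members, the groups did not overlap in 9 of the 100 probe sets, 5 with EET above (hspa1b, hspa8b, hspe1, bag6 and canx) and 4 with EET below (dnajc24, dnajc21, fkbp10b and hsf2bp). The background was 11.7% of all tested probe sets, 5.81% above and 5.91% below, so the share of the members was not above it. Among the brighter members it was 5 of 69, against 13% of all brighter probe sets.

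**Figure D3:**
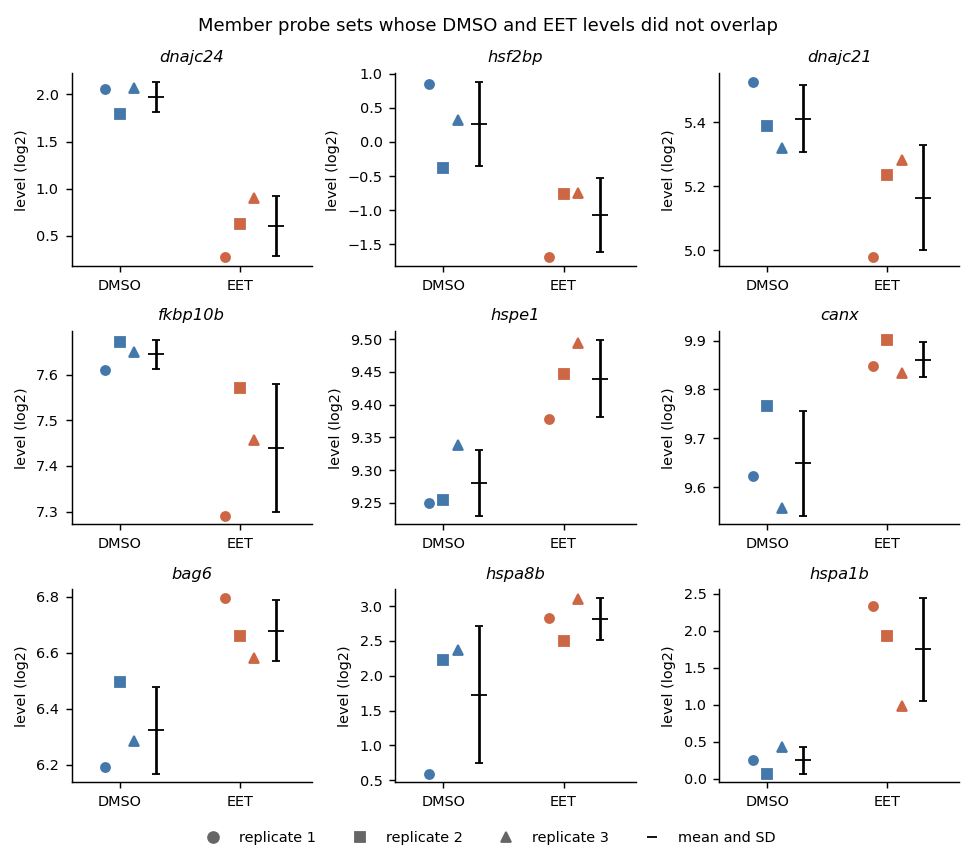
Level on the log2 scale (y axis, a separate range in each panel) of the 9 member probe sets whose DMSO and EET arrays did not overlap, with 1 symbol per replicate and bars for the mean and SD of 3 arrays. The separations of hspe1, canx, bag6, fkbp10b and dnajc21 are all under 0.4, and the wider ones belong to dim probe sets.

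Several brighter members varied widely between pools, although their median SD between replicates, 0.143, was near the 0.145 of all brighter probe sets. The widest range over the 6 arrays was that of hspa4a, an Hsp110 gene, at 1.58: it read 5.02, 5.39 and 5.69 in DMSO and 4.53, 4.83 and 6.11 in EET. Next were hsp90aa1.2 (1.13), dnajb11 (1.12), hspa12a (0.89), calr3b (0.88) and hspd1 (0.82). In hspa4a, dnajb11, hspa12a, hspd1 and hspb1 both replicate 3 arrays were above the other 4, their mean by 0.51 to 0.96 on the log2 scale, and for hspa9 by 0.31. Replicate 3 of both groups was above the other arrays in 10 of 69 brighter members, against 11.6% of all brighter probe sets, and below in 8 of 69 (pdia3, cct4, hspb8 and fkbp2 among them), against 12.3%. Over all 100 members the counts were 19 above, against 10.5% of all tested probe sets, and 9 below, against 10.4%. Of these, 9 above and 1 below were among the 31 dimmer members, which are not known to be above background. EET replicate 1 was the lowest array in 20 of the 69, against 18.9% of all brighter probe sets.

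**Figure D4:**
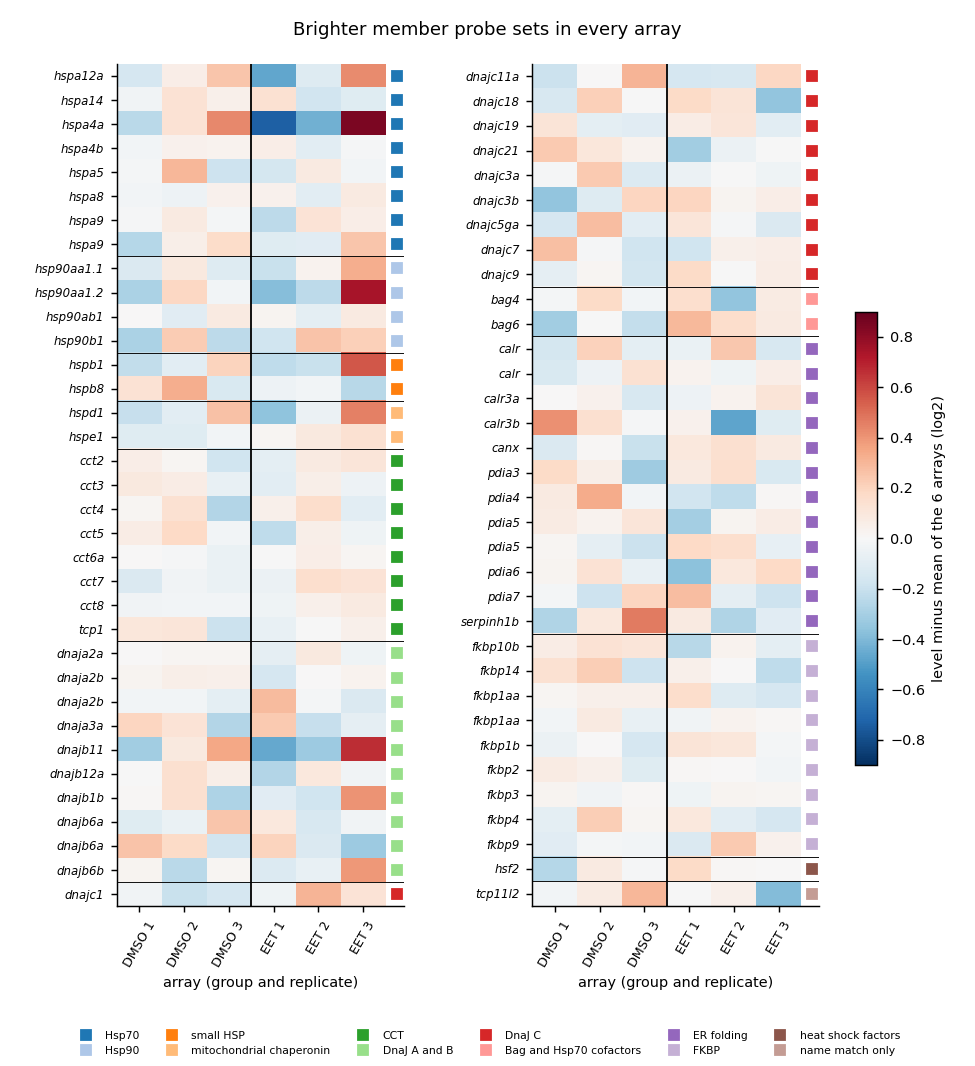
Deviation of each of the 69 brighter member probe sets from its mean over the 6 arrays (colour, log2), by array (columns, DMSO left and EET right of the line) and by role (squares). The CCT and FKBP rows are pale throughout, and EET replicate 3 holds the darkest red cells, at hspa4a, hsp90aa1.2 and dnajb11.

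Because replicate 3 stood apart, the differences were also read within it. In the pair of replicate 3 arrays hsp90aa1.2 was higher in EET by 0.76, dnajb1b by 0.68, hsp90aa1.1 by 0.44, hspa4a by 0.41, hspb1 by 0.36 and dnajb11 by 0.31. In the mean of replicates 1 and 2 the same genes differed by -0.26, -0.22, -0.07, -0.53, -0.06 and -0.28. The direction of these genes thus turned between the pools. Similar rises within replicate 3 came without a turn in hsp90b1 (0.45) and dnajb6b (0.37). Their differences in the mean of replicates 1 and 2 were 0.06 and 0.02. Falls in EET within replicate 3 were found as well, in tcp11l2 (-0.69), serpinh1b (-0.56), a pdia7 probe set (-0.38) and dnajc18 (-0.36). In the mean of replicates 1 and 2 these differed by -0.0022, -0.0085, 0.20 and 0.11, so pdia7 and dnajc18 turned the other way. In the replicate 3 pair 43 of 69 brighter members were higher in EET, and 3923 of all 7751 brighter probe sets. A turn of sign was not particular to the genes named here: it was found in 29 of 69 brighter members and in 44.3% of all brighter probe sets. EET replicate 3 was the highest of the 6 arrays in 17 of 69 brighter members, against 21% of all brighter probe sets. By role these were 4 of 8 Hsp70, 3 of 4 Hsp90, 1 of 2 small heat shock protein, 2 of 2 mitochondrial chaperonin, 2 of 8 CCT, 3 of 10 DnaJ type A and B and 2 of 12 endoplasmic reticulum probe sets. None of the 10 brighter DnaJ type C, 9 FKBP and 2 Bag and cofactor probe sets was among them. These counts rest on 1 array and on few probe sets per role, and a difference between roles was not tested. The genes named for a rise or a fall within replicate 3 were chosen after their values were seen. With 1 array of each group a turn has no replicate check. Of the 5 brighter members whose groups did not overlap, bag6 differed by 0.38 without replicate 3 and by 0.30 within it, canx by 0.18 and 0.28, hspe1 by 0.16 and 0.16, and fkbp10b by -0.21 and -0.19. The remaining one, dnajc21, differed by -0.35 without replicate 3 and by -0.04 within it.

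**Figure D5:**
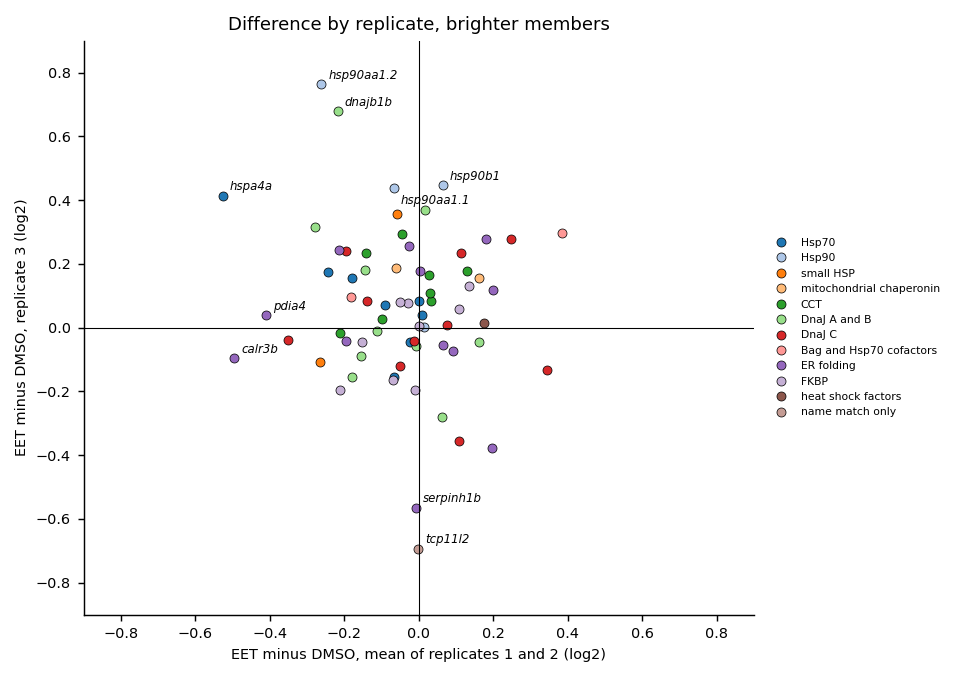
Log2 difference of EET minus DMSO in the mean of replicates 1 and 2 (x axis) against the same difference in replicate 3 (y axis) for the 69 brighter members, coloured by role. Genes beyond 0.4 on either axis are named; hsp90aa1.2, dnajb1b and hspa4a lie in the upper left, where the sign turned.

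Other folding genes that the symbol rule does not reach were read from a list of cochaperones, prefoldins, cyclophilins, oxidative folding and unfolded protein response genes, clusterin and crystallins of the small heat shock family. It had 91 probe sets of 66 genes, 46 higher in EET and 45 lower, where 49.5% of all tested probe sets were higher. Their median difference was 0.01. Over all probe sets 0 passed in either direction, where 0% of all probe sets were called. An unadjusted p under 0.05 was found in 2 of the 91, against 5.27% of all probe sets. The groups did not overlap in 9 of the 91, 6 with EET above and 3 with EET below, against 11.7% of all tested probe sets. Among the brighter ones 1 of 64 was called, against 0.0774% of all brighter probe sets. It was the secreted chaperone clu, higher in EET (log2 difference 1.52, SE 0.19, adjusted p = 0.0205 there and 0.317 over all). The result of clu was known when the list was written. The unfolded protein response genes (24 probe sets of 16 genes) had 14 higher in EET and 10 lower. Their median difference was 0.06. The stress-spliced factor xbp1 read 9.46, 9.49 and 9.56 in DMSO and 9.33, 9.27 and 9.49 in EET, overlapping at -0.14; the array values used here do not measure its splicing. The translation-controlled factor atf4a differed by -0.02, and hyou1, an Hsp110 of the endoplasmic reticulum, by -0.07. The like-named atf4b was lower in every EET array, by a log2 difference of -0.12, without passing (adjusted p = 0.943 over all and 0.874 among the brighter ones). The largest difference among the brighter probe sets of this response was 0.35 (SE 0.24), for ppp1r15a. Its other probe sets differed by 0.32, 0.20 and -0.03, and the groups overlapped in each. Of the other genes, erp44, which retains oxidoreductases in the secretory pathway, read 6.48, 6.70 and 6.47 in DMSO and 6.89, 6.82 and 6.87 in EET, higher in every EET array by 0.31 without passing (adjusted p = 0.930 over all and 0.668 among the brighter ones). The dim tmx1, like erp44 from the oxidative folding genes, was lower in every EET array by a log2 difference of -0.30. So was a brighter probe set of txndc5, by -0.20, while the other brighter txndc5 probe sets differed by 0.09 each. Besides clu and erp44, the probe sets with EET above were brighter ones of stub1 (0.20) and ppiaa (0.11). The others were dim ones of lonp1 (0.73) and ttc4 (1.09), and none of the probe sets of these 4 genes passed. The myosin chaperone unc45b differed by -0.08, and the Hsp90 activator ahsa1a by 0.09. The like-named ahsa1b was the lowest of the brighter listed probe sets, at -0.35 (SE 0.18). Its groups overlapped, and it did not pass (adjusted p = 0.930 over all and 0.739 among the brighter ones).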

How the data were processed

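Biotin-labelled material made from 6 µg of embryo RNA was read on 1-colour Affymetrix arrays, per the labels' protocols. The deposited log2 values give each probe set once for every array. Background correction, summarisation and scaling by the authors are not given in the sources used here. The log base was taken as 2 because the highest value, 13.63, read as a natural log would exceed what a scanner can record.

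Of 15617 probe sets 115 controls were left out. Symbols came from the platform annotation and were updated through a RefSeq table of the GRCz12tu assembly, in which all 100 members matched. The test was limma's moderated one (version 3.58.1, run in R 4.3.3, 2-sided), and p-values were adjusted by Benjamini-Hochberg across the 15502 tested probe sets. A second fit used the 7751 probe sets at or above the median level. Differences, SEs and intervals are from the first fit. The procedure was tested on simulated data with independent noise in every array, which held no shift of replicate 3. Over all probe sets it recovered 33.9% of 2-fold and 65.4% of 4-fold changes, and 5.43% of its calls were false. Among the brighter probe sets it recovered 89.5% and 98.8%, and 4.71% of its calls were false. These rates hold for simulated sets in which 200 probe sets were changed. In the real data 6 of the 7751 brighter probe sets and 0 over all were called. Recovery with fewer than 200 changed probe sets was not simulated. The members, lists and settings were chosen with earlier results of these data known. Named are members with the highest level, smallest p or widest range by role or over all members, a fixed set of well-known chaperones, and the genes that match by letters alone. Outside these, pdia7 and dnajc18 are named for falls within replicate 3. From the other folding genes, those named were chosen after their values were seen. The RefSeq table also gave which genes neighbour each other. Its coordinates are not printed, and no sequences were used here. Deviations from the group means correlated between same-numbered arrays at 0.042, 0.056 and 0.148 across all tested features, and at 0.177, 0.239 and 0.554 (replicate 3) across the brighter ones. There DMSO replicate 1 with EET replicate 2 (0.296) and DMSO replicate 2 with EET replicate 1 (0.267) correlated more than their own numbers did. The cross pairs that held a replicate 3 array lay between -0.396 and -0.324. Deviations within a group sum to 0, so these values depend on each other and cannot decide whether same-numbered arrays share a source. The number was left out of the model and used as a block in an alternative, which changed no call.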

Additional observations from a re-analysis of the deposited data

How the results depend on the processing

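No chaperone probe set was called by limma under any alternative run: quantile normalisation, median centring, leaving out the dimmest 25% of probe sets, 32 added on the linear scale before the log, trend and robust, array weights, replicate 3 as a batch term, without both replicate 3 arrays, a threshold of 0.10, and each array left out in turn (0 to 0). The smallest adjusted p of a member ranged from 0.313 to 0.837 over all and from 0.274 to 0.977 among the brighter probe sets. With the replicate number as a block 0 were called in both fits and the median difference was -0.02. The median of the members, -0.02, lay between -0.05 and 0.01 with 1 array left out, turning positive without DMSO replicate 2 or EET replicate 1 (0.01 each), and was 0.0026 with the brightest probe set of each gene. Of 70 named probe sets, pdia7 and dnajc18 not included, 33 kept their sign in every setting and 37 did not. At least 1 SD between replicates separated 8 of 1039 recomputed gene values from their reported ones. Low signal limits the 31 dimmer members most.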
